A study of Saccharomyces cerevisiae with 23 samples.

Results

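Divergent intergenic regions are the stretches between a left gene read towards the left (C, or Crick, strand) and a right gene read towards the right (W, or Watson, strand), so that both start codons face the region and both promoters lie in it. Here they were followed as targets of Ty1, a retrotransposon of budding yeast, at positions over 2 kb from any tRNA gene and from SCR1, SNR6, SNR52 and RPR1, which are also transcribed by RNA polymerase III. The R64 (sacCer3) annotation held 1527 divergent gaps between neighbouring nuclear protein-coding genes, of which 1412 had at least 1 such far position, 906.324 kb in all, among 5452 gaps of any orientation with a far position. The region between GAL1 and GAL10 was left out. A site was a distinct chromosome, strand and 5′ end of an aligned interval. The far divergent regions held 8335 of 152129 sites in a galactose library and 643 of 11208 in a dextrose library.

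The series comprised 23 samples of the haploid strain BY4741 (MATa his3Δ1 leu2Δ0 ura3Δ0 met15Δ0), of which 21 in 8 groups mapped nucleosomes and were not analysed here. The other 2 were the insertion libraries, both from cells with the plasmid pJEF2365. Both cultures came from a preculture in 2% raffinose with 0.1% dextrose and then spent 24 h in either 2% galactose, which induces Ty1 expression by the series title, or 2% dextrose. Both were afterwards grown in dextrose for 24 h and, in 2 further passages of 24 h, with 1 mg/mL 5-FOA, which kills cells with a working URA3 gene. The labels do not say what the plasmid carries or what the primer site named SSB marks, so plasmid-borne and resident Ty1 copies cannot be told apart.

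Ty1 copies itself through RNA and inserts its DNA with its own integrase, and it is known to prefer nucleosomal DNA upstream of genes transcribed by RNA polymerase III. A divergent region joins a pair of promoters for RNA polymerase II. Yeast promoters are known for a stretch with few nucleosomes upstream of each start, bordered by a well-placed nucleosome over the start of transcription.

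Far positions held 68274 sites (44.9%) in galactose and 7922 (70.7%) in dextrose, each medium being 1 library with no replicate check, so no test between media was made. Intervals of 96 bases, the longest, were 43.5% of those in galactose and 25.01% of those in dextrose, and intervals of 50 to 95 bases were 48.9% and 71.0%. Lengths of exactly 54 bases accounted for 1.88% in galactose and 19.1% in dextrose, and lengths of exactly 78 bases for 2.41% and 13.2%. Of the 643 dextrose sites in divergent regions, 263 (40.9%, 95% interval 37.1 to 44.8) were also galactose sites, whereas galactose sites occupied 0.460% of the strand positions there. The shared fraction was 19.4% among 96-base intervals and 90.6% (77 of 85) among 78-base intervals. These libraries therefore share positions, and the main dextrose ratios and shares are also given without them. All intervals given cover counting error only.

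In galactose the divergent regions were the class with the highest density of Ty1 sites, with 9.20 sites per kb (95% interval 9.00 to 9.40). Tandem regions, where both neighbours are read in the same direction and 1 promoter faces the gap, had 8.59 sites per kb, convergent regions, which hold 2 gene ends, 7.89, and coding sequence 5.34. The ratio of divergent to tandem density was 1.07 (1.04 to 1.10), and that of divergent to coding density 1.72 (1.68 to 1.76). The step between the intergenic classes was thus small beside the step from coding sequence to intergenic sequence. The ratio to convergent regions was 1.17 (1.12 to 1.21). A single convergent gap in the ribosomal DNA, between TAR1 and YLR154C-G (chromosome XII:455071-462521), held 544 galactose sites, and without it the ratio was 1.36 (1.30 to 1.42).

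**Figure D1:**
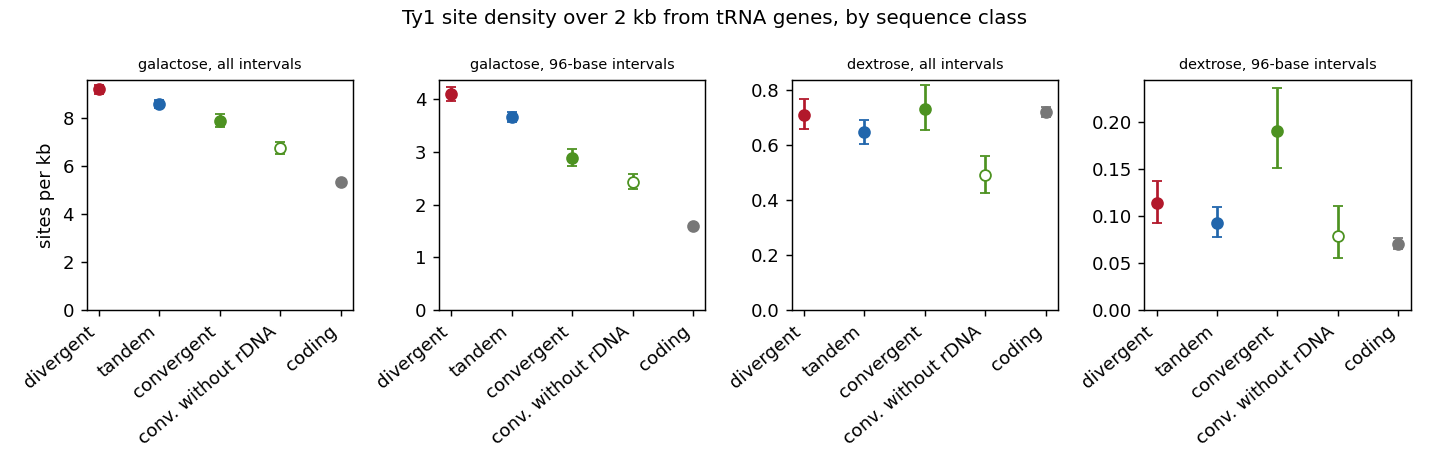
Density of Ty1 sites (sites per kb, linear axes from 0) over 2 kb from tRNA genes, by sequence class, for each library and for its 96-base intervals. Points are densities and bars exact Poisson 95% intervals; the open marker leaves out the ribosomal DNA gap. In galactose the divergent class is highest at 9.20 and coding sequence lowest at 5.34, while in dextrose divergent regions and coding sequence lie at 0.709 and 0.718.

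The order divergent, tandem, convergent, coding was clearest among the galactose intervals of 96 bases, at 4.10, 3.66, 2.88 and 1.58 sites per kb. There the ratio of divergent to coding density was 2.59 (2.49 to 2.68). For the 50 to 95-base intervals the ratio was 1.24. Among those of at most 49 bases it was 3.42, and divergent regions did not exceed tandem ones, the ratio being 0.981 (0.881 to 1.09). In narrower classes, chosen after seeing the data, the ratio to coding sequence was 1.05 at 70 to 79 bases and 0.868 (0.760 to 0.986) at exactly 78 bases. The size of the excess over coding sequence therefore moved with interval length, and the part of interval length in it was not tested.

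In dextrose no excess over coding sequence was seen when all intervals were counted. Divergent regions had 0.709 sites per kb (0.656 to 0.766) and coding sequence 0.718, a ratio of 0.988 (0.909 to 1.07). Among the dextrose intervals of 96 bases, with 103 divergent sites, the ratio was 1.61 (1.29 to 1.99). With the positions shared with galactose left out it was 1.15 over all lengths. Within dextrose, divergent regions stood close to tandem ones, with a ratio of 1.10 (0.992 to 1.217). The ratio to convergent regions was 0.969 with the ribosomal DNA gap, which held 109 dextrose sites. Without the gap divergent density was the higher, with a ratio of 1.45 (1.24 to 1.70). Without the shared positions these ratios were 1.09 and, with the gap kept, 1.19.

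Divergent regions took 12.2% (12.0 to 12.5) of the far sites in galactose and 8.12% (7.52 to 8.74) in dextrose, on 8.23% of the far positions. The share was 4.09 percentage points higher in the galactose library (95% interval 3.42 to 4.72). This interval is for the sites of these 2 libraries and does not take in variation between cultures, so it is no test of the media. Among 96-base intervals it was 15.9% against 11.2%, a difference of 4.68 points (2.43 to 6.62). For 50 to 95-base intervals the shares were 9.69% against 7.60%, a difference of 2.08 points (1.37 to 2.76). Without the shared positions the dextrose share was 9.06%. The galactose share was the higher in each of these interval classes.

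The excess over coding sequence was spread over the genome. In galactose the divergent density exceeded the coding density on 16 of 16 chromosomes, with ratios from 1.42 on chromosome III to 2.54 on chromosome VI. The excess over tandem regions was not general, being present on 11 of 16 chromosomes with ratios from 0.580 on chromosome III to 1.46 on chromosome V. Divergent density itself ran from 7.54 sites per kb on chromosome XVI to 14.2 on chromosome VI, with a median of 9.15. On chromosome VI, a single region, YFR054C-IRC7, held 129 of the 294 divergent sites. In dextrose divergent density exceeded coding density on 6 of 16 chromosomes. Within 20 kb of a chromosome end galactose divergent density was 10.01 sites per kb against 9.10 elsewhere, whereas coding density was 3.84 against 5.40. Tandem density, at 9.88 against 8.45, and convergent density, at 10.5 against 7.56, were also higher there, so this was not particular to divergent regions.

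Density in galactose fell with distance from the nearest tRNA gene and then levelled out above coding sequence. Divergent regions had 18.0 sites per kb (16.7 to 19.4) at 2 to 3 kb from the nearest listed gene, 11.2 at 3 to 5 kb, 9.46 at 5 to 10 kb and 8.47 at 10 to 20 kb. Beyond 50 kb the density was 8.61 sites per kb. Tandem regions went from 15.7 to 7.52 over the same distances and coding sequence from 7.20 to 4.84. So the excess over coding sequence was present at every distance examined, and the highest densities were those nearest the limit. Just inside the 2 kb limit, at 1500 to 2000 bp, divergent sequence had 29.2 sites per kb, and just outside, at 2000 to 2500 bp, it had 23.2. In dextrose the divergent density lay between 0.598 and 1.05 sites per kb in all 6 distance classes, with no fall from the nearest class (0.6998) to the farthest (0.759).

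**Figure D2:**
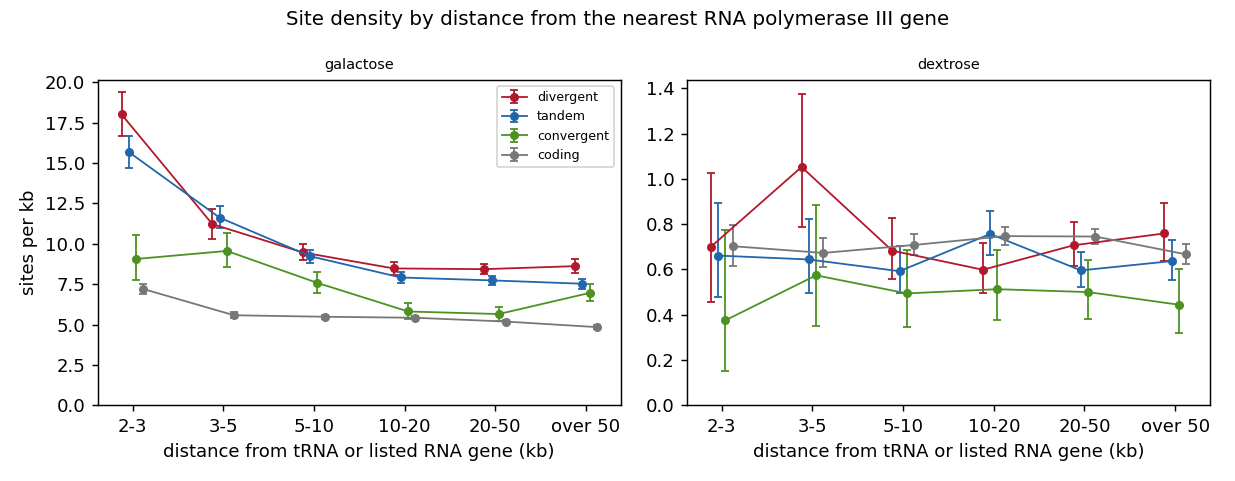
Density of sites (sites per kb) against distance from the nearest tRNA gene or listed RNA polymerase III gene, by sequence class and library, with exact Poisson 95% intervals; the ribosomal DNA gap is left out. Galactose divergent density drops from 18.0 at 2 to 3 kb to 8.47 at 10 to 20 kb and stays above coding sequence, while dextrose shows no such drop.

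Within the regions, galactose sites were sparsest between 100 and 200 bp from the start codons, and denser both next to the codons and farther away. Measured from the nearer of the 2 start codons, the first 50 bp held 10.95 sites per kb (10.4 to 11.5). Zones start 1 base past their lower limit. The density was 8.68 at 51 to 100 bp, 7.12 (6.76 to 7.497) at 100 to 200 bp, 10.1 (9.68 to 10.5) at 200 to 400 bp and 9.30 at 400 to 800 bp. In 10-bp steps it went from 12.5 sites per kb in the first to 5.81 at 141 to 150 bp and up to a highest value of 13.3 in the step just past 300 bp. The 100 to 200 bp zone had 0.706 times the density of the 200 to 400 bp zone (0.660 to 0.754) and 0.650 times that of the first 50 bp (0.605 to 0.699). Sites were thus sparser between these zones than on either side, and nucleosome positions were not used here.

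**Figure D3:**
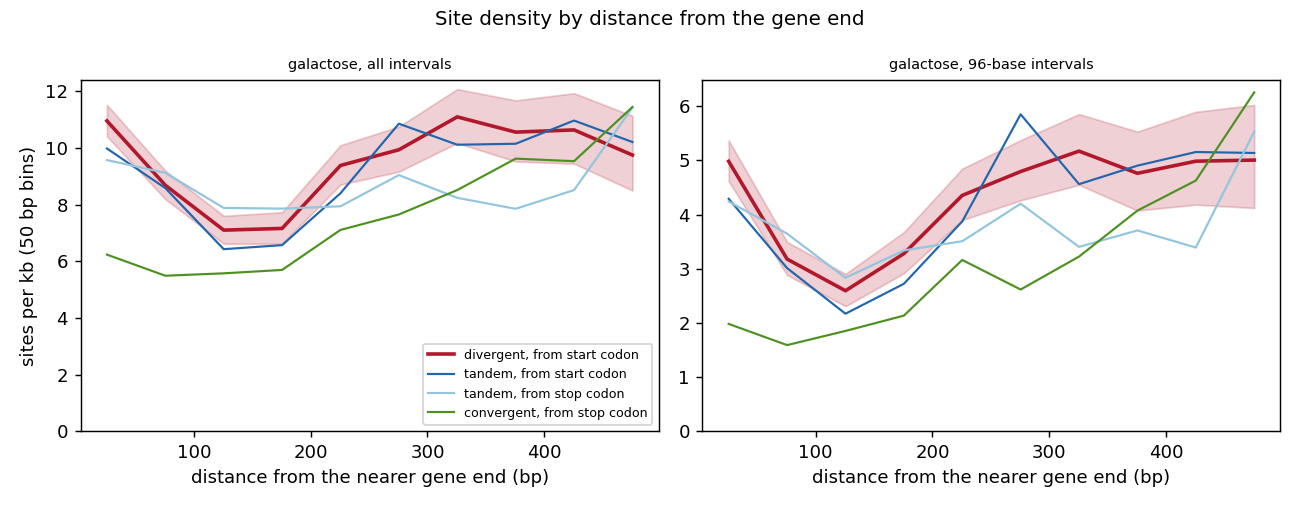
Galactose site density (sites per kb in 50-bp bins, linear axes from 0) against distance in bp from the nearer start or stop codon, for all intervals and for 96-base intervals; lines are sequence classes and the band is the exact Poisson 95% interval of divergent regions. Divergent density is high in the first 50 bp (10.95), low at 100 to 200 bp (7.12) and high again at 200 to 400 bp (10.1), tandem density from the start codon has a like course, and convergent density is low near the stop codon and rises with distance.

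The dip at 100 to 200 bp was not particular to divergent regions. Measured from the start codon in tandem regions, the ratio of this zone to the next, at 200 to 400 bp, was 0.671 (0.620 to 0.727), close to the 0.706 of divergent regions. From the stop codon in tandem regions it was 0.951 (0.879 to 1.03), and from the nearer stop codon in convergent regions 0.708 (0.623 to 0.805), where density was low near the stop codon and rose with distance. Against the first 50 bp, the ratio was 0.650 on the start side of both divergent and tandem regions, 0.822 (0.761 to 0.889) on the stop side of tandem regions and 0.901 (0.807 to 1.005) in convergent regions. Relative to the first 50 bp, the 100 to 200 bp zone was thus lower on the start side than on the stop side. In tandem regions the first 50 bp had 9.98 sites per kb at start codons and 9.57 at stop codons. The 100 to 200 bp zone had 6.48 and 7.87.

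The trough was deeper among 96-base intervals, where the ratio of the zones was 0.613 (0.554 to 0.679). Over all intervals the ratio was below 1 on 15 of 16 chromosomes, with chromosome I at 1.38 as the exception. By region length, distance was taken from each start codon and not from the nearer one. Between 100 and 200 bp of a start codon the density was 6.13 sites per kb in regions of up to 300 bp and between 6.83 and 7.44 in the 4 longer classes. In the first 50 bp it was between 9.35 and 11.8 in all 5 classes. At 200 to 300 bp it was between 8.17 and 10.4 in the 4 longer classes. In regions of up to 300 bp this outer zone lies next to the other codon, so a zone ratio from the nearer codon does not exist there. In some longer regions part of it is also nearer to the other codon. The left and right start codons gave alike values at 100 to 200 bp, 6.76 and 7.03 sites per kb, and 10.4 and 11.5 in the first 50 bp. Past the start codon, inside the flanking genes, density fell on, from 7.64 sites per kb in the first 50 bp of coding sequence to 5.90 at 100 to 200 bp.

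The dextrose library showed no trough over all intervals, with 0.746 sites per kb in the first 50 bp, 0.667 at 100 to 200 bp and 0.658 at 200 to 400 bp. The zone ratio was 1.01 (0.796 to 1.29). Among 96-base dextrose intervals it was 0.521 (0.254 to 1.02), an interval wide enough to take in both the galactose value and 1, and without intervals of 54 or 78 bases it was 0.755. Without the shared positions the dextrose ratio over all lengths was 0.908 (0.657 to 1.251). Dextrose sites lay a median of 163 bp from the nearer start codon, against 202 bp in galactose and 186 bp for all far divergent positions. Those within 200 bp made up 55.99% of dextrose sites and 49.7% of galactose sites, against 52.7% of positions.

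Sites were split evenly between the strands, but close to a start codon the reads leaned towards the gene. The W strand held 49.9% (48.8 to 50.98) of sites in galactose and 49.6% in dextrose. Within 100 bp of the nearer start codon, 1535 of 2678 galactose intervals, 57.3% (55.4 to 59.2), ran from their 5′ end towards the codon. At 100 to 200 bp the share was 46.9% (44.3 to 49.5), a small lean the other way, and 42.5% (38.5 to 46.6) among 96-base intervals. Beyond 200 bp it was 48.7% (47.2 to 50.2). The lean towards the gene was therefore limited to the stretch next to the codon. It was 56.5% at left and 58.1% at right codons, above 50% on 16 of 16 chromosomes (51.1% to 64.5%), and 61.6% (58.7 to 64.5) among 96-base intervals. In dextrose it was 65.5% (58.8 to 71.7, 146 of 223 sites), above 50% on 14 of 16 chromosomes. The galactose lean was absent among intervals of at most 49 bases, at 49.7%, and with the 3′ end of the interval taken as the site, at 50.9% (48.8 to 53.0). Without the shared positions the dextrose share was 66.9%. The lean was not particular to divergent regions or to start codons. In the first 50 bp in galactose it was 58.5% in divergent regions and 59.2% at the start codons of tandem regions. Towards stop codons it was 61.8% in tandem regions and 65.7% (62.4 to 68.9) in convergent regions. The label protocols do not say which end of Ty1 was read, so the direction of a read is not the orientation of the element.

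**Figure D4:**
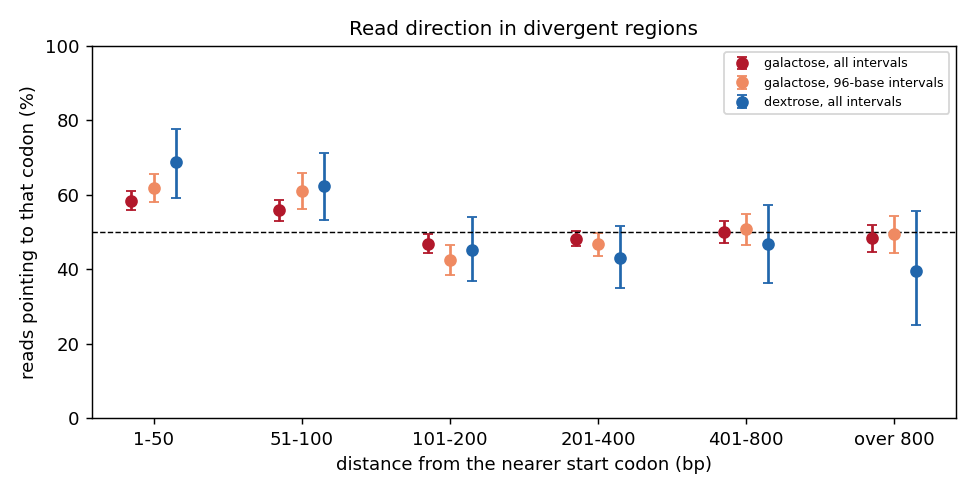
Percent of sites in divergent regions whose interval runs towards the nearer start codon (axis 0 to 100), by distance from that codon in bp, for all galactose intervals, the 96-base galactose intervals and all dextrose intervals, with exact Clopper-Pearson 95% intervals and a dashed line at 50%. Over the first 100 bp the share is 57.3% in galactose and 65.5% in dextrose, and at 100 to 200 bp it is 46.9% and 45.3%.

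In galactose, sites on opposite strands faced each other with overlaps of 4 to 6 bases more often than at more distant offsets. Ty1 integration is known to duplicate 5 bases of target DNA, so reads from both ends of 1 insertion can start on opposite strands with 5 shared bases. In galactose 412 of the 4176 minus-strand sites in divergent regions (9.87%) had a plus-strand site placed in this way. An overlap of 4 bases gave 196 pairs, one of 6 bases 138, and the more distant offsets a mean of 26.25 (range 11 to 55). Among 96-base intervals the overlap of 5 stood out further, with 126 pairs against 18 and 12 at the neighbouring offsets. Among 50 to 95-base intervals it did not, with 126 pairs against 142 at 4 bases and 91 at 6. In dextrose there were 0 pairs with an overlap of 5 among 324 minus-strand sites and 13 with an overlap of 6. Intervals of 78 bases gave 29 of the galactose pairs with an overlap of 6, on 131 minus-strand sites. The pairs were not particular to divergent regions. In galactose coding sequence 1592 of 21893 minus-strand sites (7.27%) had a partner with an overlap of 5, beside 1711 pairs at 4 bases. Among 96-base intervals there, 177 pairs had an overlap of 5, against 37 at 4 bases and 29 at 6. Recognition sites of MseI and BglII are palindromes of 4 and 6 bases, and the part of the digestion in these pairs was not tested.

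Region by region, most divergent regions were hit in galactose and few in dextrose. Of the 1383 regions with at least 100 far positions, 1236 had at least 1 galactose site, or 89.4%, against 82.4% of all intergenic regions, 87.2% of tandem and 64.4% of convergent ones. Divergent regions are longer, with a median of 496.5 bp against 391.5 bp for tandem and 225 bp for convergent regions. A region had a median of 4 galactose sites (quartiles 2 and 7) and a median density of 7.94 sites per kb (quartiles 4.09 and 12.3). In dextrose 446 regions had a site, 32.2% of them against 24.4% of all intergenic regions. A density of at least 3 times the intergenic mean, or 26.0 sites per kb, was reached by 38 divergent regions, 2.75%, against 2.47% of all intergenic, 2.61% of tandem and 1.86% of convergent regions, so regions of very high density were about as frequent among divergent regions as among the rest.

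**Figure D5:**
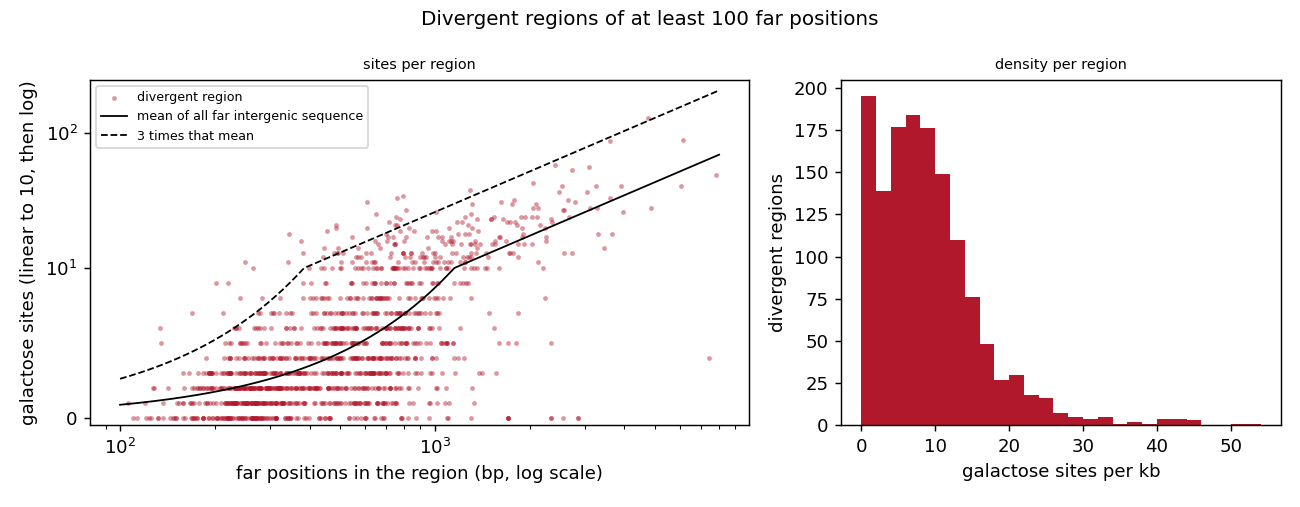
Left, galactose sites against far positions (bp, log axis; site axis linear to 10, then logarithmic) for the 1383 divergent regions, with lines at the intergenic mean of 8.68 sites per kb and at 3 times that mean. Right, histogram of density per region. Most regions follow the mean line, 147 lie at 0, and the highest count is 129.

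Longer regions collected more sites nearly in proportion to their length. The 395 regions of up to 300 bp had a median of 2 galactose sites and the 148 regions over 1200 bp a median of 15. Density was 8.30 sites per kb in the shortest class, 9.35, 9.39 and 8.82 in the next 3 and 9.46 in the longest. The ratio of the shortest to the longest class was 0.877 (0.807 to 0.952). Its direction depended on interval length, since the ratio was 0.690 among 96-base intervals and 1.07 (0.952 to 1.19) among those of 50 to 95 bases. Without the 10 regions with the most sites, all of them in the longest class, it was 0.996. Those 10 were picked by their galactose counts, so the direction of this change follows from the choice. In dextrose the classes ran from 0.642 to 0.820 sites per kb and did not rise with length.

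The regions with the most galactose sites were long and mostly near chromosome ends. YFR054C-IRC7 (chromosome VI:259434-264203), upstream of the β-lyase gene IRC7 of sulfur metabolism, had 129 sites, of which 69 were of 96 bases, and 6 dextrose sites. YEL073C-RMD6 (chromosome V:7554-13719) had 90 and YER186C-YER187W (chromosome V:562626-566229) had 87. The TIR2-AUS1 region (chromosome XV:346951-349678), between the genes of a cell wall mannoprotein and a sterol importer, had 53, and it is an internal region. The 10 highest held 647 sites, 7.76% of the members, on 4.24% of the positions, and 8 of them lay within 20 kb of a chromosome end. Their lengths ran from 2051 to 7822 bp. The other 6 were PAU20-YOL160W (58 sites), YPR195C-YPR196W (56), TDA8-YAL064W (49), AAD15-YOL164W-A (43), IRC22-MNN1 (41) and FRE2-COS9 (41), with genes that include FRE2, a ferric reductase, and MNN1, a mannosyltransferase of the Golgi.

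By density most of the 10 leading regions were close to the 2 kb limit. Their lengths ran from 250 to 1194 bp, on both sides of the 496.5 bp median of divergent regions. ANS1-YHR127W (chromosome VIII:360182-360912) had 18 galactose sites on 343 far positions, 52.5 sites per kb. APS2-PTK2 (chromosome X:545176-545786), between genes of a clathrin adaptor subunit and a kinase of ion transport, had 31, or 50.7 sites per kb. SUB1-YET2 (chromosome XIII:349523-350380), beside the transcription coactivator gene SUB1, had 33, or 43.6 sites per kb. In 9 of the 10 densest regions the far positions began under 4 kb from a tRNA or listed gene, which held for 130 of all 1383 regions (9.40%). The tenth, YKL222C-MCH2 (chromosome XI:5621-6106), had 20 sites, 41.2 per kb, at 40.6 kb from the nearest such gene. The others were MEP1-YGR121W-A (44.8 sites per kb), NGL2-MRPL33 (44.0), TFC6-ESC2 (43.3), RPL38-YLR326W (42.8), REA1-REX3 (42.4) and ULI1-ECO1 (41.8). TFC6 encodes a subunit of TFIIIC, the factor that recruits RNA polymerase III, and its region had 21 sites.

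Of the 38 regions past 3 times the mean, 17 began under 4 kb from a tRNA or listed gene and 16 lay over 10 kb from one. The latter included FDH1-YOR389W (38 sites, 29.5 per kb), beside a formate dehydrogenase gene, and POT1-BNR1 (13 sites, 34.2 per kb), between genes of a peroxisomal thiolase and a formin. They also included RAD14-ERG2 (13 sites, 26.4 per kb), a region between a DNA repair gene and a sterol isomerase gene, which contains the RNA polymerase III transcript RNA170. These 3 were chosen after their values were seen. RNA170 is not among the genes whose surroundings were left out.

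A further 147 regions, 10.6%, had no galactose site. They were short, with a median of 275 bp, and 84 were of at most 300 bp. Among all 1412 regions, those of any far length included, 25.3% of the ones of up to 300 bp had no site, against 4.23% of those of over 500 and up to 800 bp. The longest without a site included pairs of equal length beside genes of the same families, HXT15-THI13 and THI11-HXT16 (2843 bp each) and PAU14-VTH1 and PAU1-VTH2 (2336 bp each), with YML133C-COS3 (2559 bp) as the fifth. Only intervals with a mapping score of 30 or more were in the files, and whether reads could be placed in these regions was not examined. As far as counting goes, 0 allows up to 3 sites in each. The longest regions with sites were TDA8-YAL064W (7822 bp, 49 sites), YGR038C-B-YGR039W (7420 bp, 4 sites), RNH203-TAR1 (6381 bp, 26 sites), YEL073C-RMD6 (6166 bp, 90 sites) and YPL277C-SAM3 (6069 bp, 41 sites).

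The dextrose library was too sparse to rank regions. Its highest counts were 8 sites in YFL064C-COS4, where galactose had 13, 6 in YFR054C-IRC7 and 5 each in SWI4-LSM4, SRY1-JEN1 and DPS1-BPT1. SWI4 encodes a cell cycle transcription factor and JEN1 a lactate permease. YFR054C-IRC7 was among the highest in both libraries.

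In pooled density, regions of known promoter classes mostly lay near the level of all divergent regions. That level was 9.19 sites per kb in total and 7.94 at the median region. The histone pairs, transcribed outward from shared promoters in S phase, had 6 galactose sites at HTA2-HTB2, 9 at HTB1-HTA1, 4 at HHT2-HHF2 and 0 at HHF1-HHT1. Together 6 histone gene regions had 47 sites, 9.78 per kb, with a median of 8.42. HTZ1-PLB3, which lies 2.79 kb from a tRNA or listed gene, gave 23 of these sites, 16.8 per kb. Of the 4 pairs, HTB1-HTA1 was above 9.19 sites per kb and the others were below it, from 0 to 8.58. The 69 regions with a ribosomal protein gene had 9.39 sites per kb, 5 of them with 0 sites and 1, RPL38-YLR326W, past 3 times the mean, close to the 10.6% and 2.75% of all divergent regions. The 9 regions of glycolysis and fermentation genes had 10.9 sites per kb, from 0 at ADP1-PGK1, beside the phosphoglycerate kinase gene, to 17.9 at PUP2-ENO1, beside an enolase gene. The 32 regions of proteasome, chaperonin and RNA polymerase genes had 8.41 sites per kb. Their median of 4.92 was below the 7.94 of all divergent regions. PUP2-ENO1, counted in this list as well as in the glycolysis list, gave 32 of their 144 sites. It lies 3.29 kb from a tRNA or listed gene. The 4 heat shock regions had 11.3 sites per kb.

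The list of mating and cell wall genes stood highest, with 194 galactose sites in 10 regions, 15.5 sites per kb (13.4 to 17.8), and a median of 18.1. Examples are PIR1-PIR3 with 30 sites (22.9 per kb) and PIR5-HSP150 with 31 (19.1 per kb), whose genes encode cell wall proteins of the PIR family. GYP8-STE2, beside the α-factor receptor gene, had 2. None of the 10 regions lacked a site and none reached 3 times the mean, beside 10.6% and 2.75% of all divergent regions, and counts of 0 among 10 regions are near those shares. The far positions of PIR1-PIR3 and YER010C-TIR1 begin at 2.001 kb from a tRNA or listed gene and those of PIR5-HSP150 at 2.82 kb. YOR008C-A-TIR4, at 2.71 kb, and CCW12-YLR111W, at 3.75 kb, had lower densities of 7.18 and 6.85 sites per kb, while PEX34-KAR4, with 12 sites (21.1 per kb), lies 54.5 kb away. Among all divergent regions, 9.40% began under 4 kb from such a gene. TIR2-AUS1, at 4.36 kb, gave 53 of the 194 sites. The part of tRNA distance in the value of the list was not tested. In dextrose the list had 11 sites, 0.877 per kb, against 0.711 over all divergent regions.

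Of the marker genes deleted in the strain, HIS3 shares a divergent region with MRM1 (chromosome XV:721709-721945), which had 2 galactose sites, 8.44 per kb. MET17, also called MET15, starts no divergent region in the annotation.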

How the data were processed

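Genomic DNA of 2 libraries was analysed, 1 per medium. Per the labels' protocols, DNA was cut with MseI, ligated to an adaptor, cut with BglII and amplified from the SSB site. The submitters' processing notes name Trimmomatic 0.39, BWA 0.7.19, SAMtools 1.22, bedtools 2.31.1, Picard 3.4.0 and build R64 (sacCer3), with settings not given in the sources used here. The files, as deposited, hold the start, end and strand of aligned intervals, not normalized by the authors, and a mapping score. The deposited score ranged from 30 to 60. File names state that duplicates were removed, so a position counts about once however often it was hit.

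Genes came from the RefSeq gene table of R64, with 6002 nuclear coding genes and 275 tRNA genes, strands were read from systematic names, and coordinates are 1-based. Densities divide sites by far positions. Shares carry exact Clopper-Pearson 95% intervals, counts and densities exact Poisson 95% intervals, ratios exact conditional intervals and differences of shares Newcombe 95% intervals. For a count of 0 the limit is 3 sites, or 0.00439% of galactose and 0.0379% of dextrose far sites. With 1 library per medium no p-value is given. Computation used Python 3.11.15, numpy 2.4.6, pandas 2.3.3, scipy 1.17.1, statsmodels 0.14.6 and matplotlib 3.10.9, and the counting was tested on simulated data.

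The members, gene lists and rule for named regions were chosen with earlier results of these data known. Named regions, of at least 100 far positions, were the 10 with most galactose sites, the 10 densest of at least 200 far positions, the 5 with most dextrose sites, the 5 longest, the 5 longest with 0 galactose sites, the 4 histone pairs and those of HIS3 and MET17. Other regions named as examples of a list were chosen after their values were seen. The planned motif and base composition counts were not run and no sequence is printed, because no genome sequence was used here. Differences in how well positions can be cut or mapped are not taken into account. Alternatives covered interval length, the end used, merging, the tRNA distance, bins, mapping score, chromosome ends and the removal of regions.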

Additional observations from a re-analysis of the deposited data

Results flagged for a closer look

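The GAL1-GAL10 region (chromosome II:278353-279020), the promoter shared by the galactokinase and epimerase genes, is divergent and was left out of the members. It held 122 galactose sites (95% interval 101.3 to 145.7), 183 sites per kb, where the densest other divergent region had 52.5. It held 5 dextrose sites, 7.49 per kb (95% interval 2.43 to 17.5), above the 0.709 of divergent sequence as a whole and under the 11.8 of the densest other region.

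The ratio of divergent to coding density was above 1 in galactose, at 1.72, and below it in dextrose, at 0.988. This difference between media was not tested, since each medium has 1 library. The dextrose interval, 0.909 to 1.07, includes 1, and among 96-base intervals the dextrose ratio was 1.61.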

How the results depend on the processing

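Of 240 values recomputed under alternatives, 164 stayed within the 95% interval of the main value or within 1.5 times the main count, 72 moved beyond it and 4 changed direction. A change of direction was counted only where the main value's 95% interval left out 1 (ratios) or 50% (shares of direction), so values near these, as in dextrose, could cross them and count as moved. The moved values not printed here belong to the other dextrose measures and to the lowest density within 400 bp of a start codon. In galactose, the divergent-to-coding ratio lay between 1.24 and 3.42 under the alternatives of this section, and lower in the narrow length classes given above.

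Interval length moved most. With 96-base intervals alone, galactose gave a share of 15.9%, ratios of 1.12 to tandem, 1.42 to convergent and 2.59 to coding, a zone ratio (100 to 200 bp over 200 to 400 bp) of 0.613, 61.6% of reads towards the codon and a ratio of short to long regions of 0.690. Dextrose gave 11.2%, 1.61 to coding and 75.7% towards the codon. With 50 to 95 bases, galactose gave 9.69%, 1.05 to convergent, 1.24 to coding, a zone ratio of 0.820 and a reversed length ratio of 1.07, and dextrose 0.898 to coding. With at most 49 bases, galactose gave 17.1%, reversed ratios of 0.981 to tandem and 0.957 to convergent, 3.42 to coding, a zone ratio of 0.636, a reversed 49.7% towards the codon and 54.5% on the W strand. Dextrose gave 10.5%, 1.64 to coding and 83.3% towards the codon.

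With the 3′ end as the site, galactose gave 10.3%, 1.10 to tandem, 1.30 to convergent, 1.32 to coding, a zone ratio of 0.889, 50.9% towards the codon and a length ratio of 0.794, and dextrose 7.41% and 0.875 to coding. Intervals in place of sites gave 11.3% and 1.54 to coding. Merging sites within 5 bp gave 12.8%, 1.35 to convergent and 1.82 to coding. At over 5 kb from the listed genes the coding ratio was 1.66, and at over 1 kb the values were 12.7%, 1.03 to tandem, 1.08 to convergent, 1.85 to coding and a length ratio of 0.739. Without 20 kb at chromosome ends the share was 11.6%. Without the 10 regions with most sites it was 11.3%, with 1.03 to tandem, 1.66 to coding and a length ratio of 0.996. These regions were picked by their galactose counts, and no tandem region was removed, so the direction of these changes follows from the choice. Leaving out regions with a non-coding gene gave 11.7% and 1.36 to convergent. At 5 times the mean, 6 regions passed in galactose and 87 in dextrose, against 38 and 199 at 3 times the mean. The 199 were 14.4% of divergent regions, near the 13.2% of all intergenic and 14.2% of tandem regions. In dextrose, 3 times the mean was 2.04 sites per kb, so 1 site was enough in a short region. The cause of the shifts between alternatives was not tested.

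Further alternatives were chosen after seeing the data. Without intervals of 54 or 78 bases galactose gave 12.5% and 1.78 to coding, without the ribosomal DNA gap 1.36 to convergent, and without the shared positions dextrose gave 9.06% and 1.15 to coding.

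No paired analysis was possible because each medium has 1 insertion library, and the nucleosome samples that carry replicate numbers were not analysed here. The 643 dextrose sites give most regions a count of 0, which limits comparison between regions.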
